A study of Danio rerio with 6 samples.

Results

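The regions described here are 1976 isolated GFPplus-only regions: stretches of the zebrafish genome where open chromatin was called in each library of fluorescent nuclei, in no library of non-fluorescent nuclei, and far from any other stretch with that pattern. They were chosen from the authors' peak lists. Peaks of the 6 lists that overlapped by 1 bp or more were merged into union regions, of which 180773 of 187225 lay on the 25 numbered chromosomes. A union region with peaks from 3 of 3 GFPplus lists and from 0 of 3 GFPminus lists counted as GFPplus-only. It was isolated when its midpoint was more than 10 kb from the midpoint of every other GFPplus-only region. The presence and absence of peaks and the distance to other regions of the same kind therefore chose the members and are not findings about them.

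Embryos of the transgenic strain Tg(fli1a:egfp) were collected at 24 hours post fertilization. Both fractions came from these embryos, so GFPplus and GFPminus nuclei share strain, transgene and stage. Nuclei were freed from deyolked embryos and sorted by fluorescence, and 20000 nuclei entered each library. The labels call the GFPplus nuclei endothelial and the GFPminus nuclei non-endothelial, and nuclei of each fraction were collected on 3 occasions. The question the study's title states is which enhancers are active in the developing endothelium.

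ATAC-seq uses a transposase that inserts adapters where DNA is not wrapped in tightly packed nucleosomes, so peaks mark accessible sites such as promoters and enhancers. Promoters are often accessible in many cell types, while enhancers, which can lie far from the gene they act on, are more often accessible in a single lineage. fli1a encodes an ETS family transcription factor, and ETS factors bind many enhancers of blood vessel genes. Its regulatory sequence also drives the transgene in some cells outside the vessel wall, such as neural crest derivatives and some blood lineage cells, so a GFPplus-only region is named here by its sort gate and not by a cell type. No genome or gene annotation of the build used by the files (Zv9) was at hand, so neither sequences nor genes are given, and marker genes could not be used to check the sort.

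The lists differed in length. The GFPplus lists held 72695, 73716 and 50396 peaks in replicates 1 to 3, and the GFPminus lists 113476, 110663 and 33437. GFPminus replicate 3 thus had the shortest list, so a missing peak carries less weight there than in GFPminus replicates 1 and 2. Read depth is unknown from peak lists, so absence of a peak is not absence of reads. Strength is given by the authors' own scores, which are a fold enrichment at the summit (a ratio over the peak caller's background) and a −log10 p. For comparison within a list, the −log10 p was turned into a percentile, the share of the list's peaks at or below it.

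Isolated regions made up most of the GFPplus-only regions. Of 180773 union regions on numbered chromosomes, 2250 (1.24%) were GFPplus-only, and 1976 (1.09%) were also isolated. The isolated regions were 87.8% of the GFPplus-only regions, and the other 274 lay within 10 kb of another one and are called clustered here. The mirror set, isolated GFPminus-only regions, held 1474 regions (0.815% of all), which were 94.3% of the 1563 GFPminus-only regions (0.865%). With one library fewer to satisfy, 3478 regions qualified as isolated without GFPplus replicate 2 and 3405 without GFPplus replicate 3. Regions called in all 6 lists, below also named 6-list regions, numbered 19764 (10.9%).

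Isolation was a matter of degree. The nearest other GFPplus-only region was 144 kb away at the median, with quartiles of 47.3 and 393 kb. It was 10 to 20 kb away for 179 members, 20 to 50 kb for 336, 50 to 100 kb for 300, 100 to 500 kb for 798 and more than 500 kb for 363. The members just inside the rule were chr9:29405546-29406108 and chr9:29415771-29416191, which are each other's nearest neighbour at 10.154 kb, and chr19:29184534-29185002 at 10.228 kb. Their mean folds over the GFPplus libraries were 6.31, 6.33 and 9.37. Just outside were chr4:18426415-18426704 and chr4:18436360-18436612, which lie 9.9265 kb from each other, and chr20:21495749-21496489 at 9.923 kb. Their mean folds were 4.98, 6.07 and 5.48.

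The members were narrower than regions called in all 6 lists and wider than the typical union region. Their median width was 354 bp, with quartiles of 281 and 450 bp, and 330 of them (16.7%) reached 500 bp. Clustered GFPplus-only regions had a median of 345 bp, isolated GFPminus-only regions 392 bp, and regions called in all 6 lists 589 bp, of which 66.2% reached 500 bp. The median over all union regions was 211 bp, and 12.2% of them reached 500 bp. Merging peaks of several lists widens a region, and regions of the 6-list set merge peaks of more lists. By the rule a member merges peaks of 3 lists, while a union region can come from 1 list. The 26243 regions with 1 GFPplus call and no GFPminus call had a median of 134 bp. The widths of merged regions are therefore not on equal terms in either comparison. The best single peak inside a member had a median width of 306 bp in GFPplus replicate 1, 200 bp in replicate 2 and 219 bp in replicate 3, where all peaks of these lists had medians of 236, 211 and 213 bp. In the 6-list set these medians were 434, 374 and 307 bp, so they were higher in each GFPplus library.

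The widest members were chr1:24911411-24912491 (1081 bp), chr22:10969976-10971051 (1076 bp) and chr8:17204841-17205849 (1009 bp). The first had a fold of 8.46, 4.69 and 9.12 in GFPplus replicates 1, 2 and 3, so replicate 2 was lowest. The narrowest were chr18:46993244-46993366 (123 bp), chr21:18632722-18632850 (129 bp) and chr8:49265429-49265561 (133 bp). The member on chromosome 18 was unlike the others in its scores. Its fold was 1.68, 1.61 and 1.69 in the 3 GFPplus libraries, while its −log10 p of 28.9, 13.0 and 13.1 put it at the 90.4, 77.9 and 75.6 percentile of the lists. It was the 1 member with a fold under 2 in all 3 libraries. It lay 0.512 kb from the midpoint of a region called in all 6 lists and 294 bp from the nearest GFPminus peak.

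Members were of middle strength within the lists, and the 3 GFPplus libraries did not rank them alike. The median fold of the 1976 members was 6.02 in GFPplus replicate 1 (quartiles 4.79 and 7.66), 4.52 in replicate 2 (3.89 and 5.38) and 5.44 in replicate 3 (4.56 and 6.82). The median percentile was 70.0 in replicate 1, 48.8 in replicate 2 and 53.1 in replicate 3. A member's highest percentile was in replicate 1 for 64.6% of members, and its lowest was in replicate 2 for 51.7%. Percentiles depend on list length, and the list of replicate 3 was the shortest of the GFPplus lists. By rank the members' medians were 21786.5, 37720 and 23626 in replicates 1, 2 and 3. Among the best 33437 peaks of these lists were 72.3%, 41.9% and 74.0% of members, so by this count replicate 1 was not above replicate 3. Clustered GFPplus-only regions had the same order of percentiles, with medians at the 76.4, 55.2 and 59.5 percentile of the same 3 lists. Replicate 1 was also highest in regions called in all GFPplus lists and in 1 GFPminus list (64.5, 53.4 and 51.4) or 2 (64.0, 61.7 and 49.3). Regions called in all 6 lists did not share this order of percentiles, with medians at the 82.5, 83.9 and 74.8 percentile. Their median ranks were 12693, 11902 and 12688, so by rank replicate 3 was level with replicate 1.

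**Figure D1:**
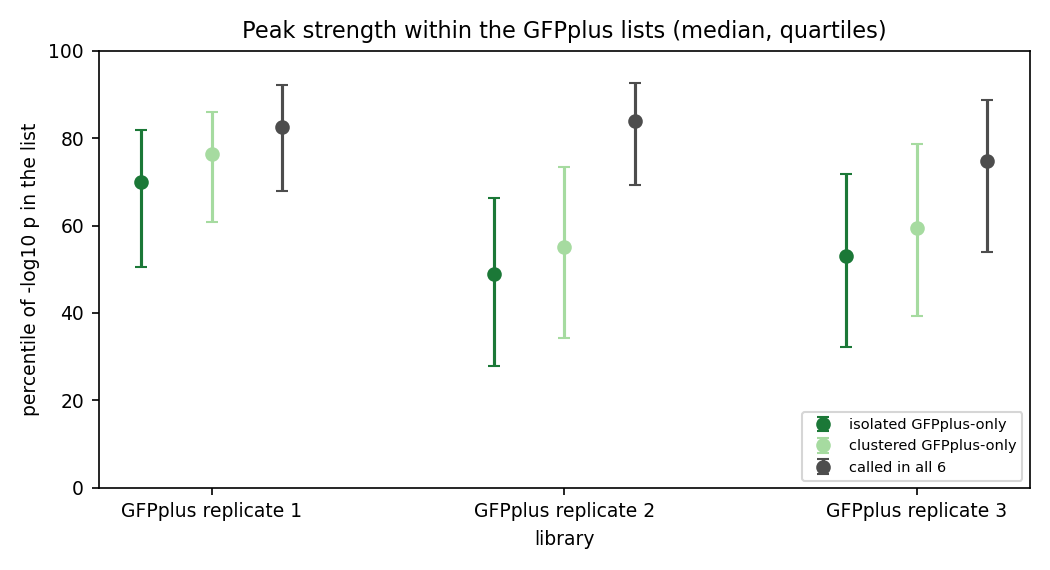
Percentile of −log10 p within each GFPplus list (y axis, percent of the list's peaks at or below) for isolated GFPplus-only, clustered GFPplus-only and 6-list regions in the 3 GFPplus libraries. Points are medians and bars run from the first to the third quartile over regions. The isolated regions had medians of 70.0, 48.8 and 53.1, below both other sets in each library.

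Few members were among the strongest peaks of a list. In GFPplus replicates 1, 2 and 3, 149 (7.54%), 16 (0.810%) and 54 (2.73%) members lay in the upper 10% of the list. Only 9 members (0.455%) lay in the upper 10% of all 3 GFPplus lists, against 18.4% of the regions called in all 6 lists. In all 3 lists 629 members (31.8%) lay above the 50th percentile and 298 (15.1%) at or below it. At the other end, 47, 138 and 100 members fell in the lowest 10% of lists 1, 2 and 3. The lowest −log10 p among a member's 3 libraries had a median of 6.46, and it reached 10 in 305 members (15.4%) and 20 in 15. The rule asks for a call in each list, so a member can include a peak that just passed the caller's threshold.

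The strongest members were ordered by the lowest −log10 p of the 3 libraries. The leading one, chr15:41032618-41033433, spanned 816 bp and had a fold of 17.8, 15.5 and 13.9 in GFPplus replicates 1, 2 and 3 (mean 15.7 ± 2.00, SD, n = 3). It was the 1 member with a fold of at least 10 in every GFPplus library. Its summits lay within 3 bp of each other, its nearest GFPplus-only neighbour was 1418 kb away, the nearest GFPminus peak was 14300 bp away, and the nearest region called in all 6 lists was 55.8 kb away. By each of these distances it was remote.

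The second, chr23:37084909-37085494, had a fold of 11.3, 9.45 and 10.9 (mean 10.6 ± 0.978, SD, n = 3). It differed in setting from the first, with a 6-list region at 10.03 kb, another GFPplus-only region at 13.2 kb and a GFPminus peak 1414 bp away. The third, chr4:15195706-15196247, had a fold of 7.94, 9.08 and 11.8 (mean 9.61 ± 1.98, SD, n = 3). Here GFPplus replicate 1 was the lowest of the 3 libraries, against the usual order. The fourth, chr9:35254955-35255661, had a fold of 13.5, 9.23 and 10.3 (mean 11.0 ± 2.22, SD, n = 3).

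Next came a pair of regions on chromosome 20. One of them, chr20:4329295-4329875, had a fold of 10.2, 7.63 and 8.80, with a 6-list region at 3.93 kb and a GFPminus peak 393 bp from its edge. The other, chr20:26095347-26095822, had a fold of 9.61, 8.05 and 10.6. The seventh, chr16:12726259-12726786, had a fold of 13.5, 8.78 and 13.1, with summits within 1 bp of each other and a GFPminus peak 438 bp away. The eighth, chr19:63101-63553, lay near the start of its chromosome and had a fold of 9.98, 5.80 and 8.87. In 7 of these 8 regions GFPplus replicate 1 had a higher fold than replicate 2. All 8 lay between 3.93 and 55.8 kb from a 6-list region.

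**Figure D2:**
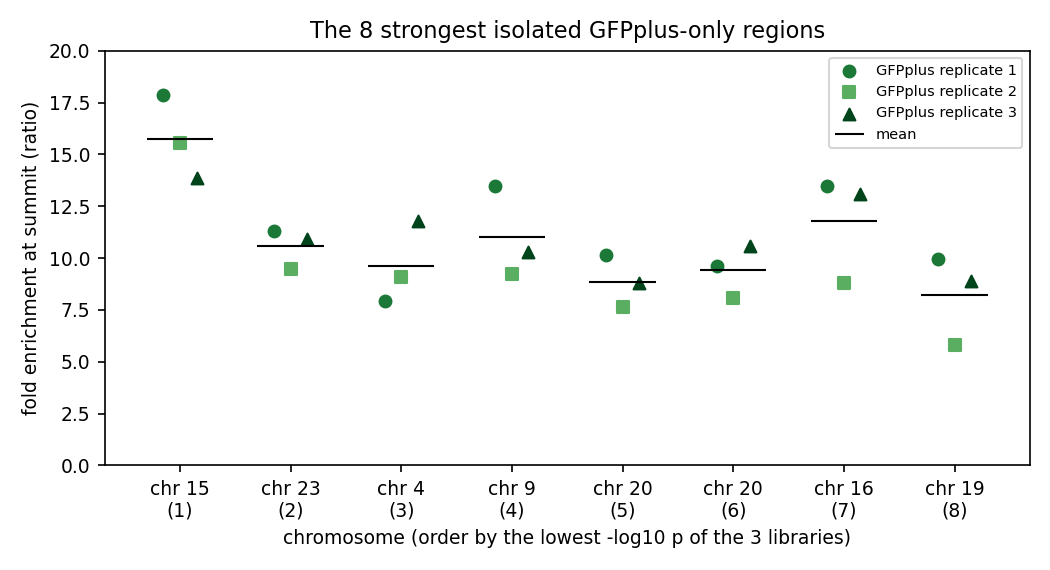
Fold enrichment at the summit (y axis, ratio over the caller's background) of the 8 strongest isolated GFPplus-only regions, in order of the lowest −log10 p of their 3 libraries (x axis, by chromosome). Symbols are the 3 GFPplus libraries and lines their means. The chromosome 15 region, at 13.9 to 17.8, is the one with every library above 10.

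The weakest members each had a call close to the threshold in 1 library. The region chr9:13870869-13871095 had a −log10 p of 15.2 and 8.40 in GFPplus replicates 1 and 3 but 3.10 in replicate 2, where it was close to the bottom of the list. The region chr1:14185485-14185698 had 4.73, 3.18 and 8.62 in replicates 1, 2 and 3. The region chr20:1786818-1787161 had 3.19, 4.73 and 5.80, so here replicate 1 was lowest. Their lowest −log10 q values were 1.309, 1.37 and 1.40.

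The positions of the summits were compared between the 3 libraries. Peaks were merged only where they overlapped, so the merging itself keeps the summits of a member close and makes most of its peaks share bases. The summits of the best peaks spanned 77 bp at the median, with quartiles of 42 and 126 bp and a maximum of 624 bp. The span was at most 50 bp in 631 members (31.9%) and over 200 bp in 178 (9.01%). The median span was smaller in clustered regions (65 bp) and in 6-list regions (63 bp) over the same 3 libraries. In 1898 members (96.1%) the best peaks of the 3 lists shared at least 1 base, with a median overlap of 144 bp. In the remaining 78 members the best peaks had no base common to all 3 lists. A single peak per list was found in 1885 members, and 91 had more in some list.

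Agreement in strength between libraries was moderate. The coefficient of variation of a member's fold over the 3 libraries was 20.2% at the median, against 14.6% in 6-list regions. Folds were not scaled between libraries, so this measure includes shifts of a whole library. In GFPplus replicates 1, 2 and 3 the median folds were 6.02, 4.52 and 5.44 for members. For 6-list regions they were 7.46, 6.77 and 6.96. Across the 1976 members, the fold of GFPplus replicates 1 and 3 had a Spearman rho of 0.563. It was 0.512 for replicates 1 and 2, and 0.393 for replicates 2 and 3. These correlations are across regions that share libraries and are given as descriptions. No such correlations are given for the other sets, so they do not set the members apart.

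Isolated members had a lower median percentile than clustered ones in each library, although 3 libraries are too few for a test to pass. The median percentile was 70.0 against 76.4 in GFPplus replicate 1, 48.8 against 55.2 in replicate 2, and 53.1 against 59.5 in replicate 3. Isolated minus clustered was −6.36 ± 0.03 percentile points (SD, n = 3 libraries), lower in 3 of 3 libraries, with an exact two-sided sign-flip permutation p of 0.25, the smallest that 3 libraries allow. In fold the difference was small, at −0.152 ± 0.105 (SD, n = 3 libraries, exact sign-flip permutation p = 0.25). Without GFPplus replicate 3, where 2 calls define a region, the percentile difference was −10.0. The same regions were measured in each library, so agreement of the 3 differences is partly agreement of one sample of regions.

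The distance to the nearest region called in all 6 lists was also described, since such regions are accessible in both fractions. It was 17.8 kb at the median for isolated GFPplus-only regions, with quartiles of 7.19 and 41.3 kb. The median was 16.8 kb for clustered GFPplus-only regions, 24.0 kb for isolated GFPminus-only regions and 22.7 kb for all union regions. From one 6-list region to the next it was 14.8 kb. A 6-list region lay within 10 kb of 659 members (33.4%), against 27.0% of isolated GFPminus-only and 27.4% of all union regions. The share was 31.0% for clustered GFPplus-only and 37.5% for 6-list regions. At the shortest range the order was turned, because 70 members (3.54%) had a 6-list region within 2 kb, against 6.12% of all union regions and 8.88% of the 6-list regions themselves. This was not particular to the members, since the share was 3.65% for clustered GFPplus-only and 3.19% for isolated GFPminus-only regions. Beyond 100 kb lay 147 members (7.44%), against 12.6% of all union regions and 4.01% of clustered GFPplus-only regions. When weak peaks were left out and nothing else was asked, the regions that then qualified as isolated GFPplus-only had a median within 1 kb of that of all union regions. With peaks of a −log10 q of at least 5 the medians were 30.8 kb for isolated GFPplus-only and 30.2 kb for all union regions. With a fold of at least 5 they were 34.9 and 34.7 kb, and with lists of equal length 25.7 and 26.1 kb. These sets overlapped 32.8%, 24.2% and 29.8% of the members, so they were mostly other regions. With own peaks among the best 33437 and none in the full GFPminus lists, the medians were 24.7 and 25.9 kb. That setting was chosen after seeing the data, and its regions overlapped 644 members. These distances are positions and not replicated measurements, so no test was made.

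**Figure D3:**
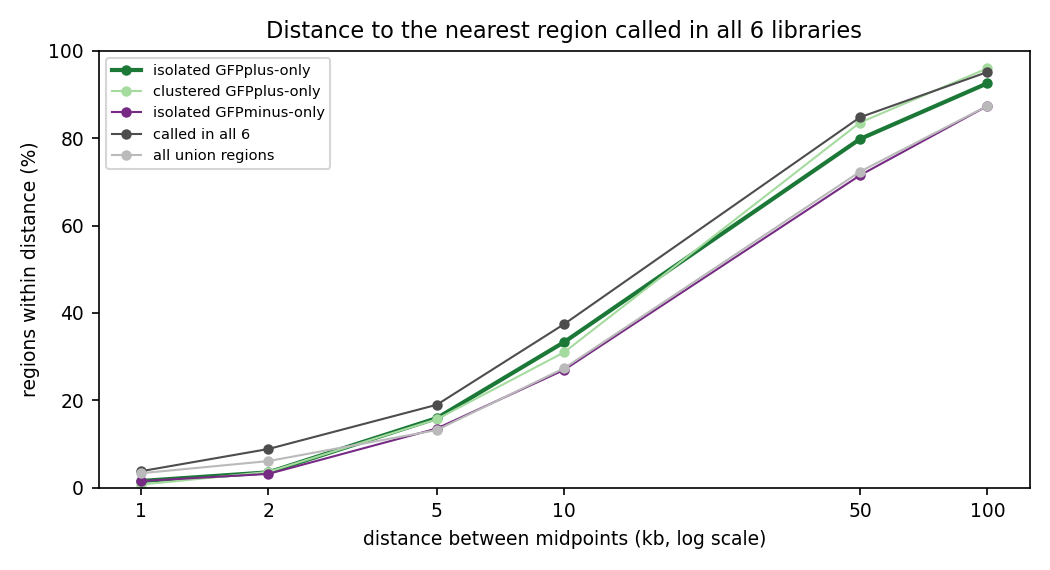
Cumulative share of regions (y axis, percent) whose nearest region called in all 6 lists lies within a distance between midpoints (x axis, kb, log scale), for 5 sets. Isolated GFPplus-only regions reach 33.4% at 10 kb and 79.8% at 50 kb, against 27.4% and 72.3% of all union regions. Clustered GFPplus-only regions reach 31.0% and 83.6%.

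The members nearest to a 6-list region had folds of 2.89 to 5.27. They were chr11:18440327-18440528 at 0.424 kb, with a fold of 5.27, 4.55 and 4.34, chr16:22587032-22587246 at 0.475 kb, with 3.12, 5.09 and 4.26, and chr22:14261499-14261724 at 0.476 kb, with 2.89, 4.25 and 5.04. The most remote one, chr4:35407807-35408069, lay 1002 kb from a 6-list region and 7825 kb from the next GFPplus-only region, with a fold of 4.24, 5.79 and 5.44. Although remote from both kinds, it was 187 bp from a GFPminus peak. The next were chr19:46272680-46272914 at 567 kb, chr12:13622452-13623093 at 564 kb, chr8:44116019-44116333 at 544 kb and chr17:40523418-40523854 at 515 kb. The last of these was the strongest of the 5, with a fold of 11.2, 7.002 and 7.61 and summits within 11 bp.

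Median width and fold were lowest in the members nearest to a 6-list region and about level beyond 5 kb. The 70 members within 2 kb of a 6-list region were 300 bp wide at the median, with median folds of 4.76, 3.998 and 4.88 in GFPplus replicates 1 to 3. The 245 members at 2 to 5 kb had a median of 328 bp and a fold of 5.31, 4.10 and 5.07. The 344 members at 5 to 10 kb had 358 bp and 6.16, 4.59 and 5.65, and the 918 at 10 to 50 kb had 357 bp and 6.23, 4.63 and 5.53. The 147 members beyond 100 kb had 360 bp and 6.10, 4.63 and 5.44. Percentiles of −log10 p followed the fold only in part. In replicates 1 and 3 they were 65.1 and 49.4 in the nearest group and 72.0 and 56.8 at 5 to 10 kb. In the most remote group they were 66.3 and 47.7, although the fold there was about level. In replicate 2 they were 50.2 in the nearest group, 50.5 at 5 to 10 kb and 46.3 in the most remote group.

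Members were isolated from their own kind and not from open chromatin in general. Another union region of any kind had its midpoint within 10 kb of 1864 members (94.3%), the same share as for all union regions (94.3%). The nearest peak of any GFPminus list was 2.91 kb from a member's edge at the median. By library it was 3.77, 3.92 and 11.6 kb in GFPminus replicates 1, 2 and 3, the last from the shortest list. A GFPminus peak lay within 1 kb of 338 members (17.1%) and within 100 bp of 40 (2.02%), at the least 3 bp away. Those 40 members had a median percentile of 48.1, 46.4 and 44.0 in GFPplus replicates 1 to 3. No GFPminus peak lay within 10 kb of 190 members (9.62%), which had medians of 69.0, 45.5 and 51.6.

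The kinds of regions around members were counted next. Regions called in 2 of 3 GFPplus lists and in no GFPminus list had a midpoint within 10 kb of 282 members (14.3%), against 7.36% of all union regions, 7.84% of 6-list regions, 6.17% of isolated GFPminus-only regions and 24.5% of clustered GFPplus-only regions, where the share was highest. Regions called in all GFPplus lists and in 1 or 2 GFPminus lists were that near to 26.7% of members, against 16.0%, 19.7%, 13.4% and 33.2% of the same sets. Regions called in 2 of 3 GFPminus lists and in no GFPplus list were near 18.5% of members, below the 21.3% of all union regions. This was not particular to the members, since the share was 18.2% for clustered GFPplus-only and 19.9% for 6-list regions. For isolated GFPminus-only regions it was 27.7%. GFPminus-only regions in 3 of 3 lists were near 2.83% of members and 2.75% of all union regions. When calls in at least 2 of 3 GFPplus lists were enough, 1694 members (85.7%) overlapped a region that was still isolated. By construction these are the members other than the 282 above, so the count is no further result.

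Other peaks were also counted in each library. On average 1.67, 1.497 and 1.10 other peaks of GFPplus replicates 1, 2 and 3 lay within 10 kb of a member, which is 1.28, 1.16 and 1.27 times the mean over all union regions in the same list. In GFPminus replicates 1, 2 and 3 the means were 1.99, 1.93 and 0.635, or 1.02, 1.02 and 1.11 times. The 3 GFPplus ratios all lay above the 3 GFPminus ratios. On the log2 scale the ratios averaged 0.30 ± 0.08 in GFPplus and 0.07 ± 0.07 in GFPminus libraries (SD, n = 3 each), a difference of 0.24. The members were chosen by GFPplus against GFPminus calls in these same libraries, which favours this direction in the peaks around them, so the difference is a description and no test is given. The isolation rule works the other way, since it removes other GFPplus-only regions from the window.

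With lists of equal length the difference was 0.18. It shrank to 0.09 without GFPplus replicate 3, 0.10 without GFPminus replicate 1, 0.13 without GFPminus replicate 2 and 0.15 without GFPplus replicate 2. It was 0.08 with peaks of a fold of at least 5 and 0.05 with 2 of 3 calls.

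For the mirror set, chosen by the opposite calls, the order of the fractions was turned. Around isolated GFPminus-only regions the ratios were 0.994, 1.002 and 0.970 in the GFPplus and 1.08, 1.05 and 1.05 in the GFPminus libraries, a log2 difference of −0.10. Around 6-list regions, whose calls do not separate the fractions, the ratios overlapped, with 1.21, 1.18 and 1.24 in the GFPplus and 1.07, 1.07 and 1.29 in the GFPminus libraries (log2 difference 0.09). The overlap came from GFPminus replicate 3, as all GFPplus ratios lay above those of GFPminus replicates 1 and 2. From 6-list regions to members the log2 ratio changed by 0.03 ± 0.05 in GFPplus and −0.12 ± 0.09 in GFPminus libraries (SD, n = 3 each). Raised GFPplus ratios were thus not particular to the members.

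**Figure D4:**
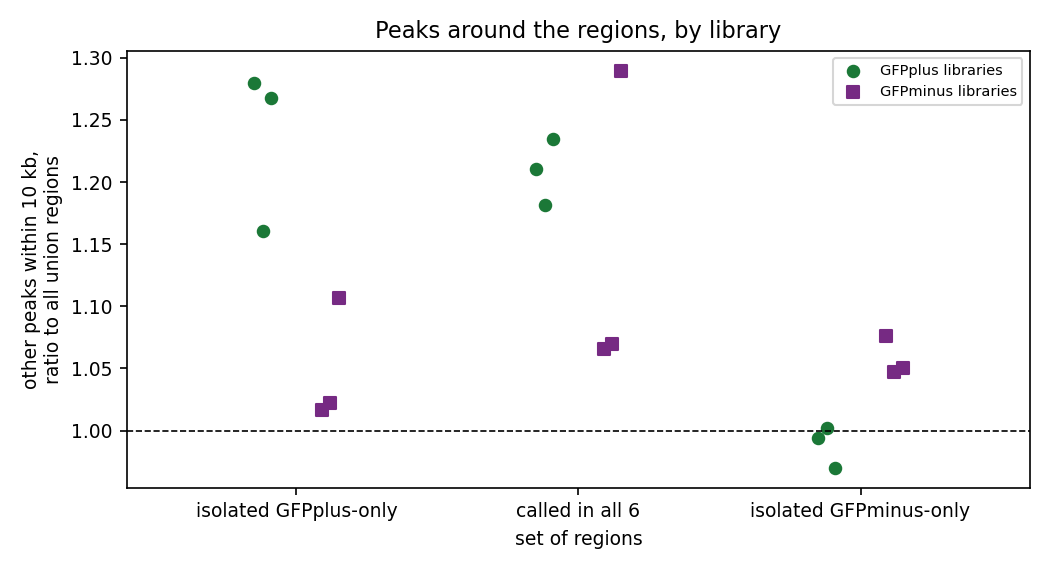
Mean number of other peaks within 10 kb of a region, as a ratio to the mean over all union regions in the same list (y axis), for isolated GFPplus-only, 6-list and isolated GFPminus-only regions. Circles are the 3 GFPplus and squares the 3 GFPminus libraries, and the dashed line marks a ratio of 1. Around isolated GFPplus-only regions the GFPplus libraries lie at 1.16 to 1.28 and the GFPminus libraries at 1.02 to 1.11.

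Every numbered chromosome held members, from 51 on chromosome 25 to 103 on chromosome 5. Per 1000 union regions there were 10.9 over all chromosomes. Chromosomes 10, 14 and 13 had the most, at 14.5, 13.7 and 13.5, and chromosomes 19, 12 and 7 the fewest, at 8.86, 8.996 and 9.27. The isolated share of GFPplus-only regions ranged from 74.5% on chromosome 23 (79 of 106) to 100% on chromosome 22 (53 of 53). Along the chromosomes, 433 members (21.9%) lay in the outer 10% at either end of the span covered by peaks. The share was 25.9% for all union regions, 25.97% for 6-list regions and 27.4% for clustered GFPplus-only regions. It was 20.1% for isolated GFPminus-only regions, so a share below that of all union regions was not particular to the members. Members within 1 Mb of the first or last peak of a chromosome numbered 134 (6.78%). Here the share was 5.91% for all union, 7.36% for 6-list, 12.4% for clustered GFPplus-only and 4.34% for isolated GFPminus-only regions. No test was made on these counts.

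**Figure D5:**
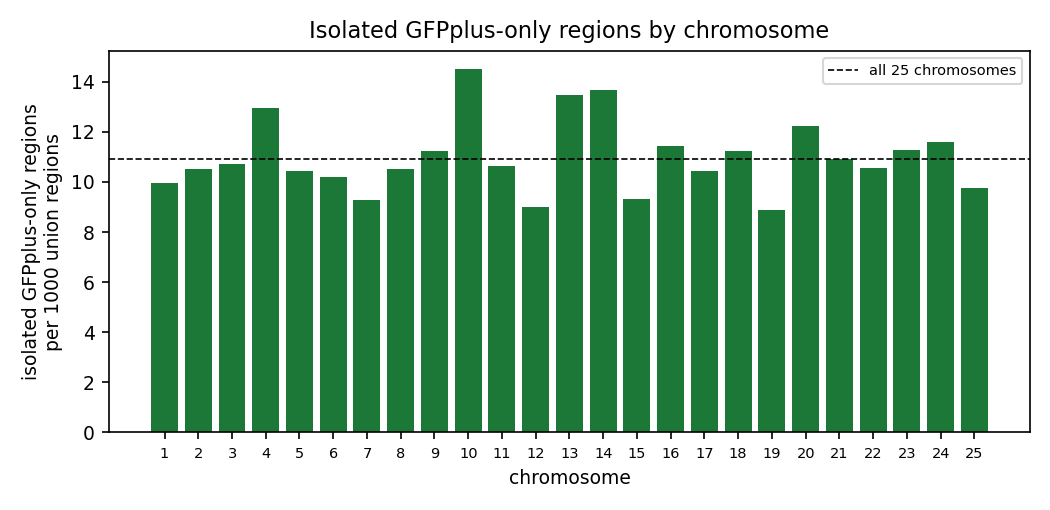
Isolated GFPplus-only regions per 1000 union regions (y axis) on each numbered chromosome (x axis). Bars start at 0 and the dashed line is the value over all 25 chromosomes, 10.9. Chromosome 10 is highest at 14.5 and chromosome 19 lowest at 8.86.

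Lists of equal length changed which regions qualified, and the number depended on how absence was judged. With every list cut to the length of the shortest, its top 33437 peaks by −log10 p, 1946 isolated GFPplus-only regions were found, but they overlapped 589 of the 1976 members (29.8%). This cut also drops weaker peaks of GFPminus replicates 1 and 2, so regions with such peaks can qualify. When no peak in the full GFPminus lists was allowed, a setting chosen after seeing the data, 703 isolated regions were found. Of the members, 1429, 827 and 1463 kept their peak among the best 33437 of GFPplus replicates 1, 2 and 3, and 644 (32.6%) kept all 3. On numbered chromosomes 2165 regions had 3 GFPplus calls and 1 GFPminus call. That call was in GFPminus replicate 1 for 993, in replicate 2 for 1098 and in replicate 3 for 74. In those lists it lay at the median 40.7, 40.3 and 20.5 percentile.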

How the data were processed

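ATAC-seq peaks of 6 libraries, 3 of GFPplus and 3 of GFPminus nuclei, were used as deposited. Tools and the builds Zv9 and danRer7 are named in the submitters' processing notes, which list cutadapt 1.3, Bowtie2 2.1.0, deepTools and MACS2. No settings are stated there. Per the file headers, the authors called peaks separately in each library on danRer7. Each deposited peak carries a fold enrichment (a ratio), a −log10 p, a −log10 q and a score. The score was not used. The lowest deposited −log10 q of a list was 1.30 to 1.31. All such values are the authors'. They were used to rank and filter peaks within a list, and folds are also averaged and correlated over the GFPplus libraries as descriptions, with no common scaling beyond each list's own background.

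Peaks were merged, classified and measured in Python 3.11.15 with numpy 2.4.6, pandas 2.3.3 and scipy 1.17.1. Where a region held several peaks of a library, the one with the highest −log10 p was used. Distances are between midpoints unless edges are named, and coordinates are 1-based. Left out were 35 GFPplus-only regions on unplaced scaffolds. The test used was an exact permutation over libraries. The permutation test planned for peaks around the members is not given, since the members were chosen by the same contrast. No test was made per region, since the smallest p of 3 against 3 libraries is 0.1. Libraries are replicates of separate sorts, per the series' design text.

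Regions were named by rule: the 8 strongest by the lowest −log10 p of 3 libraries, the 5 farthest from and 3 nearest to a 6-list region, the 3 widest, narrowest and weakest, the 3 on each side of the 10 kb limit, and the 3 chromosomes with most and with fewest members per union region. The members and rules were chosen with earlier results of these data known. Alternatives were filters (−log10 q at least 5, fold at least 5), equal list lengths, summits widened by 100 bp, an overlap of 50% of the shorter peak, 2 of 3 calls, other isolation distances, each library left out and a replicate block. The code was tested on simulated lists with planted regions.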

Additional observations from a re-analysis of the deposited data

How the results depend on the processing

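The number of members stayed within 1.5 times 1976 under 14 of 18 alternatives. The replicate block is counted among these, although it leaves the number the same by construction. It was 5056 with calls in at least 2 of 3 GFPplus lists, and 703 with own peaks among the best 33437 and none in the full GFPminus lists, a setting chosen after seeing the data. Leaving out 1 library, which asks for fewer calls, gave 2031 to 3478 regions, with 3478 without GFPplus replicate 2 and 3405 without GFPplus replicate 3. A −log10 q of at least 5 gave 1641 regions that overlapped 32.8% of the members, and a fold of at least 5 gave 1611 that overlapped 24.2%. The median width of 354 bp moved to 425 bp with the q filter, 434 bp with the fold filter, 426 bp at equal length, 275 bp with widened summits, 271 bp with 2 of 3 calls and 401 bp in the added setting. It was 262 to 355 bp without 1 library. The median distance to a 6-list region, 17.8 kb, moved to 30.8 kb with the q filter, 34.9 kb with the fold filter, 25.7 kb at equal length, 19.2 kb with 2 of 3 calls and 24.7 kb in the added setting. Without 1 library it was 11.99 to 18.0 kb, the lowest without GFPminus replicate 3, where more regions count as called in all lists by construction. Moved here means outside the 95% binomial interval of the median, 349 to 360 bp and 16.4 to 19.1 kb. That interval treats the regions as independent draws and does not measure spread between libraries. It serves only as a yardstick for these labels. The cause of the other shifts was not tested.

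Isolated minus clustered percentile kept its direction in all 17 alternatives and was −10.0 to −6.49 without 1 library. The neighbour difference of 0.24, a description, kept its direction in all 20, but fell to 0.05 with 2 of 3 calls and 0.08 with the fold filter. Both counts include the replicate block, which could not change either difference. All alternatives reuse the same libraries, and most reuse largely the same members. The counts are therefore not independent support for a direction. For the neighbour difference, the other values follow. Without 1 library the neighbour difference was 0.09 to 0.26. Against regions called in at least 3 libraries, a background chosen after seeing the data, it was 0.17, and 0.20 at equal length. The median distance of all union regions, added after seeing the data, was 22.7 kb as reported. It was 30.2 kb with the q filter, 34.7 kb with the fold filter and 26.1 kb at equal length. The isolated regions that qualified under the q filter, the fold filter or equal length, mostly not members, had medians within 1 kb of these values. In the setting with none in the full GFPminus lists it was 25.9 kb, against 24.7 kb for the isolated regions.

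The labels do not say if libraries with the same number were collected together. The deviations of same-numbered libraries had correlations of −0.011, 0.020 and 0.0086, each under 0.1, and no pairing was applied. Replicate 3 had the shortest list in both fractions, with 50396 peaks in GFPplus and 33437 in GFPminus. Whether same-numbered libraries share a collection cannot be told from these values. With the replicate block the 1976 members, their width of 354 bp, their distance of 17.8 kb and the percentile difference of −6.36 are the same by construction, as is the neighbour difference of 0.24. Peak lists hold no reads, so the depth behind an absent peak is unknown.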
